A study of Mus musculus with 6 samples.

Results

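The RNA levels of 8 genes of the caspase system, the caspases Casp2, Casp6, Casp8, Casp9 and Casp12 and the regulators Xiap, Diablo and Cflar, were followed in HT22 cells exposed to aluminum. The members were chosen by symbol for their place in the pathway as initiators, executioners or inhibitors, with earlier results of these data known, and all 8 were found among the 21878 gene symbols of the expression table. HT22 is an immortalized mouse hippocampal neuronal cell line. The control group (C1 to C3 in the labels) held 3 libraries of cells without aluminum and the Al group (M1 to M3) held 3 libraries of cells given 120 µM aluminum maltolate, a soluble complex of aluminum with the chelator maltol. The methods give a 24 h treatment and list both a medium control and a maltol control. Which of these was sequenced is not given in the labels, and an effect of maltol on these RNA levels was not tested here. The letter M was read as the Al group because the series describes only control and Al-treated cells. The groups share one cell line, for which the labels name no genetic change, and the libraries are the inputs of an m6A immunoprecipitation made from fragmented RNA.

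Caspases are cysteine proteases that are made as inactive precursors. Initiators are switched on by gathering on a platform: Casp9 on the apoptosome of Apaf1 and cytochrome c, Casp8 on death receptors through Fadd, and Casp2 on the PIDDosome of Pidd1 and Cradd. They then cut executioners such as Casp6, which cleave the proteins of the dying cell. Xiap binds and blocks Casp9, Diablo (also called Smac) leaves the mitochondria and displaces Xiap, and Cflar (c-FLIP) competes with Casp8 at Fadd. Activity is set by cleavage and binding, which RNA levels do not measure.

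The active site separates the proteases from the regulator that resembles them, and the site by which Diablo grips Xiap shows why this pair is set side by side. The coding stretches below, of 30 bases each, are read 5′ to 3′ from GENCODE transcripts on GRCm38, with the codon of the catalytic cysteine in capitals for the caspases. In Cflar the capitals mark the codon at the same distance from the coding stretch that it shares with Casp8 just upstream, and in Diablo they mark the 4 codons of the IAP-binding motif.
Casp2: ttcatccaagcaTGTcgtggagatgagaca
Casp8: ttcattcaggctTGCcaaggaagtaacttc
Casp9: ttcatccaggccTGCggtggtgagcagaaa
Casp6: atcatccaggccTGTcggggtagccagcat
Casp12: atcatgcaggccTGCagaggcagatataat
Cflar: tttattcagaacTATgagtcgttaggtagc
Diablo: atgacactgtgtGCGGTTCCTATTgctcag

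In the 5 caspases this place was found by searching the translated sequence for the active-site motif around a cysteine. A cysteine codon there, TGC or TGT, therefore follows from the search, and the Cflar codon was placed by another rule. Cflar holds TAT, a tyrosine codon. The codons lie on chromosome 6 at 42276776 to 42276778 in exon 8 of Casp2, on chromosome 1 at 58844619 to 58844621 in exon 9 of Casp8, on chromosome 4 at 141807253 to 141807255 in exon 6 of Casp9, on chromosome 3 at 129912121 to 129912123 in exon 6 of Casp6 and on chromosome 9 at 5353859 to 5353861 in exon 7 of Casp12. The Cflar codon lies on chromosome 1 at 58752623 to 58752625 in exon 10 of Cflar, and the Diablo motif on the minus strand of chromosome 5 at 123523261 to 123523272 in exon 2 of Diablo. Cflar and Casp8 are neighbours on chromosome 1 of GRCm38, with 36348 bases between the RefSeq end of Cflar at 58758884 and the start of Casp8 at 58795233. Xiap lies on chromosome X from 42059613 to 42109664.

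The depth behind the values differed between the groups. The FPKM values corresponded to 38059492 to 44556768 reads per control library and 21125631 to 26670978 per Al library, and the 50 most abundant genes took 18.04 to 19.4% of the summed FPKM in control libraries and 30.01 to 32.5% in Al libraries. Each library was therefore divided by a size factor between 0.802 and 1.21. Leaving this step out shifted the median log2 change over the 12889 tested genes by -0.46. Groups were compared with limma on log2(FPKM divided by size factor + 0.1), a scale that understates the change of low genes. A call required the study's thresholds, which are P below 0.05 before adjustment and a log2 fold change beyond 0.58 in either direction. Printed adjusted P values were corrected by the Benjamini-Hochberg method across the 12889 tested genes. Of 8 neuronal markers, Map2 and Snap25 were at or near 0 FPKM and only Tubb3 and Syn1 had a mean of at least 1, with a summed level of 12.8 to 13.3 FPKM in control libraries and 5.45 to 6.91 in Al libraries. The astrocyte list was carried by Slc1a3 (13.9 to 23.0 summed FPKM in control and 1.51 to 2.61 in Al libraries) and the microglia list by Tmem119 (39.3 to 48.9 and 22.1 to 72.6), while 4 oligodendrocyte markers summed to 0.200 to 0.365 and 0.404 to 1.27. Of the markers tested, Slc1a3 (-2.96) and Syn1 (-1.08) were called lower by log2 change after scaling and the low Cx3cr1 (2.14) and Sox10 (2.29) higher, while Tubb3 (-0.19) was not called. The part of depth, composition and cell state in the results was not tested. Fewer cells of a kind and less RNA per cell cannot be told apart in these bulk libraries.

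Of the 8 genes, 4 fell in the Al group (Casp9, Casp12, Xiap and Casp6), 2 rose (Cflar and Casp2, calls that were lost without scaling between libraries) and 2 were not called (Casp8 and Diablo). Among all tested genes 24.4% were called lower and 26.2% higher, so that the share lower among the 8, 50%, was above the background and the share higher, 25%, was near it, for genes that were not chosen blind to these data. In either direction 6 of the 8 genes were called, beside 50.6% of all. Requiring an adjusted P under 0.05 left the same counts for the 8 genes, beside 23.7% lower and 25.5% higher in the background. The median log2 fold change of the 8 genes was -0.68, against 0.03 for all tested genes. After scaling, the Al libraries lay wholly below the control libraries for 5 of the genes and wholly above them for 2, with overlap for 1. Such a separation held for 68.1% of all tested genes, with 33.1% below and 35.1% above. For a single gene the exact permutation test cannot go below P = 0.1 with 3 against 3 libraries, and each of the 7 separated genes had that value.

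**Figure D1:**
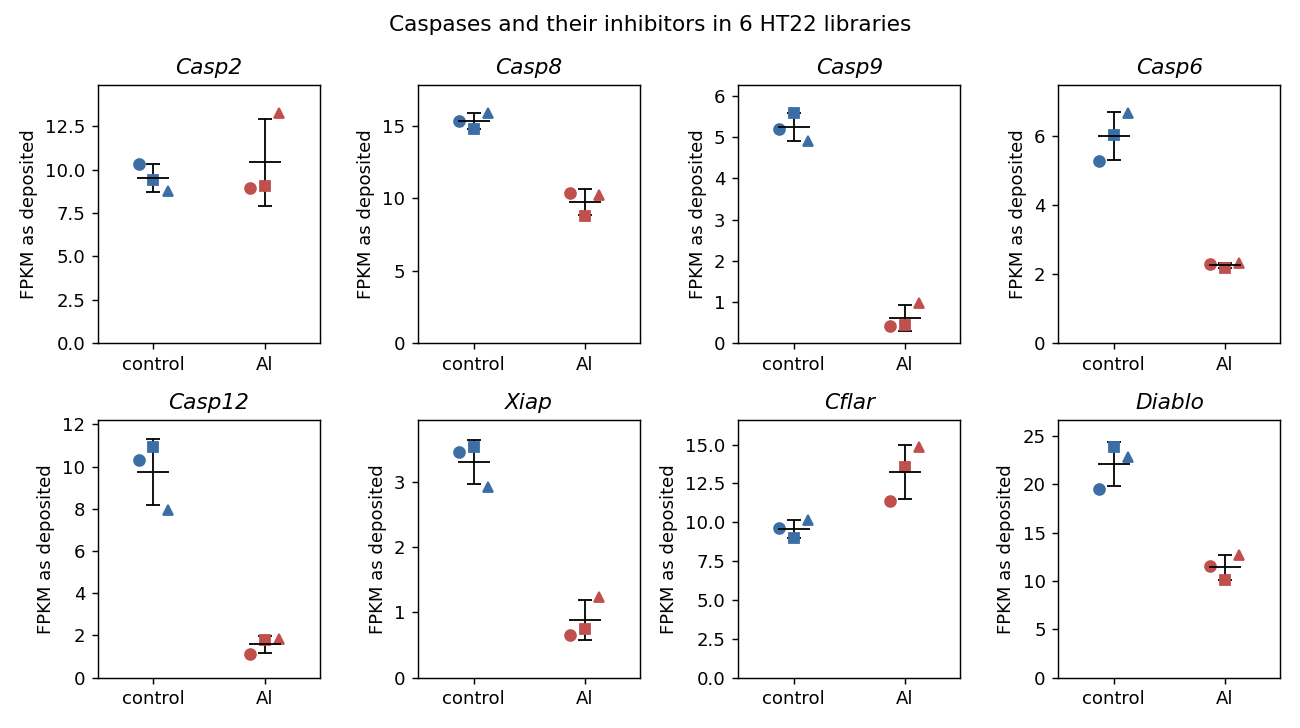
FPKM as deposited (vertical axis, starting at 0) of each of the 8 genes in the control and Al groups. Circles, squares and triangles are replicates 1, 2 and 3, and the bar is the mean ± SD (n = 3). Casp9 sits at 4.92 to 5.599 in control and 0.414 to 0.959 in Al libraries, whereas Casp2 overlaps between the groups before scaling.

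Of the initiators, Casp9 fell, Casp2 rose after scaling only and Casp8 was not called. Casp9, the initiator of the mitochondrial pathway, had 5.21, 5.599 and 4.92 FPKM across control libraries 1 to 3 and 0.414, 0.446 and 0.959 across Al libraries 1 to 3. The groups are far apart, and Al replicate 3 is the highest of its group. Behind these values stood 773 to 948 reads per control library and 38 to 79 reads per Al library. The fitted log2 change equalled -2.55 ± 0.25 by limma (standard error, adjusted P = 5.42e-05), a level of 17.0% of control. Casp9 had the largest change of the 8 genes on this scale, but with a pseudocount of 1 it was level with Casp12 (-1.68 and -1.69). In FPKM it went from rank 7 of the 8 to rank 8. Its exons overlap Cela2a and Ctrc on the other strand, and these were listed at no more than 1 read in any library.

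Casp2, the PIDDosome initiator, had 10.3, 9.42 and 8.76 FPKM across control libraries 1 to 3 and 8.92, 9.03 and 13.3 across Al libraries 1 to 3, values that overlap as deposited. After scaling it was 7.46 to 8.72 in the control group and 11.1 to 14.2 in the Al group, which no longer overlap, and Al replicate 3 stood highest. The fitted log2 change equalled 0.59 ± 0.13 by limma (standard error, adjusted P = 0.00433), just past the threshold. The call was lost with FPKM as deposited (0.11), the value was -0.19 with TPM, which gives all libraries an equal sum, and it was 0.54 with a pseudocount of 1, 0.48 without Al replicate 3, 0.56 without control replicate 2 and 0.53 without control replicate 3, all short of the threshold.

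Casp8, the death receptor initiator, had 15.3, 14.8 and 15.9 FPKM across control libraries 1 to 3 and 10.4, 8.75 and 10.2 across Al libraries 1 to 3. The deposited values are separate, but after scaling they overlapped, at 12.2 to 13.6 and 10.7 to 12.9. The fitted log2 change equalled -0.16 ± 0.11 by limma (standard error, 95% interval -0.42 to 0.09, adjusted P = 0.223), and Casp8 was not called. From the deposited FPKM it came to -0.65 and from TPM to -0.95, both called lower.

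Casp6 is an executioner caspase that cleaves nuclear lamins. Its FPKM was 5.29, 6.04 and 6.69 across control libraries 1 to 3 and 2.29, 2.17 and 2.31 across Al libraries 1 to 3, from 70 to 90 reads per Al library. The Al values lay close together and all were below the control values. The fitted log2 change equalled -0.89 ± 0.15 by limma (standard error, adjusted P = 0.000839), a level of 53.8% of control.

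Casp12 belongs to the inflammatory branch of the family and is tied in mouse to the endoplasmic reticulum. It had 10.3, 10.9 and 7.96 FPKM across control libraries 1 to 3 and 1.11, 1.79 and 1.83 across Al libraries 1 to 3, with 936 to 1251 reads per control library and 78 to 103 per Al library. The highest Al value was well under the lowest control value. The fitted log2 change equalled -2.10 ± 0.20 by limma (standard error, adjusted P = 4.67e-05), a level of 23.3% of control. The 4 genes that fell, Casp9, Casp12, Xiap and Casp6, kept their calls under all 17 alternative settings.

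As shares of their own sum, which do not depend on the scaling between libraries, the make-up of the 5 caspases differed between the groups. Casp2 made up 20.7% ± 1.32 of the summed FPKM of the 5 genes in control libraries and 41.9% ± 4.04 in Al libraries (SD, n = 3 each). Casp8 made up 33.5% ± 2.25 and 40.03% ± 4.59. Casp9 went from 11.4% ± 0.477 to 2.38% ± 0.845, Casp12 from 21.2% ± 2.82 to 6.41% ± 1.63 and Casp6 from 13.1% ± 1.88 to 9.26% ± 1.03. The ranges of Casp8 overlapped, and those of the other 4 did not. Casp2 and Casp8 together thus made up most of the sum in both groups, and a larger part of it in the Al libraries. The sum itself was 45.8 ± 1.36 FPKM under control and 24.6 ± 3.48 under Al conditions as deposited.

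Of the inhibitors, Xiap fell and Cflar rose after scaling. Xiap, which blocks Casp9 by direct binding, had 3.47, 3.53 and 2.92 FPKM across control libraries 1 to 3 and 0.658, 0.751 and 1.23 across Al libraries 1 to 3. All Al values were lower, with Al replicate 3 the highest of them. Counted reads were 1270 to 1495 per control library and 160 to 254 per Al library, and the fitted log2 change equalled -1.38 ± 0.21 by limma (standard error, adjusted P = 0.000580), a level of 38.4% of control.

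Cflar, the inhibitor at Fadd that lacks the catalytic cysteine codon, had 9.62, 8.98 and 10.1 FPKM across control libraries 1 to 3 and 11.4, 13.6 and 14.8 across Al libraries 1 to 3. The groups were separate as deposited and after scaling, and Cflar had the highest mean of the 8 genes per length in the Al group, where its range overlapped that of Diablo. The fitted log2 change equalled 0.94 ± 0.11 by limma (standard error, adjusted P = 0.000141), a level of 192% of control. Under the deposited FPKM it came to 0.46 and under TPM to 0.16, which are above 0 but not called. The table holds 1 value per gene, so the long and short forms of Cflar were not separated here.

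Diablo, the mitochondrial antagonist of Xiap, had 19.5, 23.8 and 22.9 FPKM across control libraries 1 to 3 and 11.5, 10.1 and 12.7 across Al libraries 1 to 3. It was the most abundant of the 8 genes in the control group, and every Al value was lower. After scaling the fitted log2 change equalled -0.46 ± 0.11 by limma (standard error, 95% interval -0.71 to -0.20, adjusted P = 0.00656), short of the fold threshold, so that it was not called. Under the deposited FPKM it came to -0.94 and under TPM to -1.24, both called lower. Exons of Diablo overlap B3gnt4, which was listed at 0.237 to 0.729 FPKM, on the other strand, as well as AC157931.1 on the other strand and Gm49027 on the same strand, whose levels were not analysed here. Whether strand was used in counting is not stated.

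**Figure D2:**
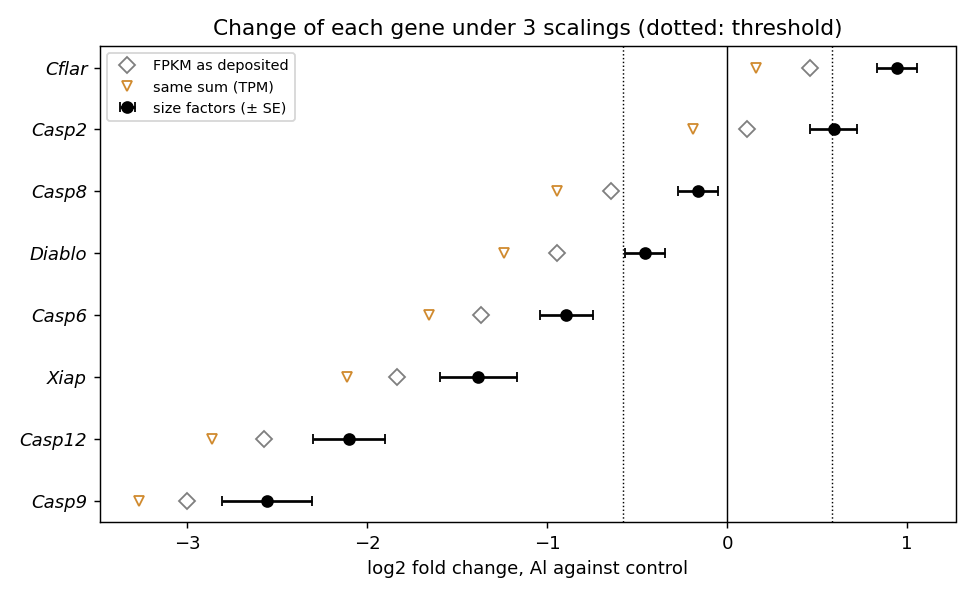
Log2 fold change of Al against control (horizontal axis) for the 8 genes, with the value after size factors as a filled circle (± standard error), that of FPKM as deposited as a diamond and that of libraries scaled to the same sum as a triangle. The dotted lines mark the threshold of 0.58. Casp9, Casp12, Xiap and Casp6 lie past it under the 3 scalings, and Casp2 moves from 0.59 to -0.19.

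In the control group the order of levels per length was Diablo, Casp8, Casp12, Cflar, Casp2, Casp6, Casp9 and Xiap. The ranges of Casp12, Cflar and Casp2 overlapped there, as did those of Casp6 and Casp9. In the Al group the order was Cflar, Diablo, Casp2, Casp8, Casp6, Casp12, Xiap and Casp9. Among the first 4 of these each range overlapped that of the next gene, as it did from Casp12 to Xiap and from Xiap to Casp9. The gap between Casp8 (9.78 ± 0.898 FPKM) and Casp6 (2.26 ± 0.0748 FPKM) divided the Al group (SD, n = 3 each).

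Ratios of a protease to its inhibitor, or of the inhibitor's antagonist to the inhibitor, were formed within each library and so are free of the scaling. Casp8 to Cflar was 1.60, 1.65 and 1.57 across control libraries 1 to 3 and 0.912, 0.645 and 0.690 across Al libraries 1 to 3. Casp8 RNA per length thus exceeded Cflar RNA in each control library and was below it in each Al library, a log2 difference of -1.12. Casp9 to Xiap was 1.50, 1.59 and 1.68 across control libraries 1 to 3 and 0.629, 0.594 and 0.778 across Al libraries 1 to 3, a log2 difference of -1.26. Both genes of this pair fell, and Casp9 fell further. Diablo to Xiap was 5.63, 6.74 and 7.82 across control libraries 1 to 3 and 17.5, 13.4 and 10.3 across Al libraries 1 to 3, a log2 difference of 1.01, or 2.01-fold. The groups did not overlap in any of the 3 ratios (exact permutation test, two-sided, P = 0.1 each, the smallest value possible). Separation is common here, as it held for 68.1% of all tested genes taken singly after scaling. Its share among other pairs of genes was not determined. RNA ratios do not give protein ratios.

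**Figure D3:**
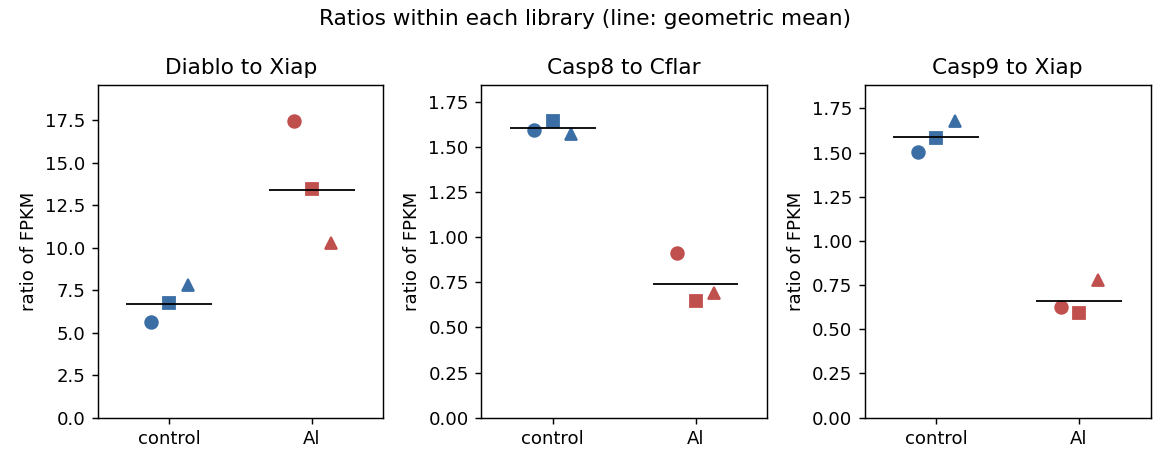
Ratio of FPKM within each library (vertical axis, starting at 0) for Diablo to Xiap, Casp8 to Cflar and Casp9 to Xiap in the control and Al groups. Circles, squares and triangles are replicates 1, 2 and 3 and the line is the geometric mean. The Al libraries lie above the control libraries for Diablo to Xiap and below them for the other ratios, where they fall under 1.

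The wider pathway was described with 36 partner genes, of which 34 were tested, Casp14 and Birc7 being too low. Of the 34, 13 were called lower (38.2%) and 4 higher (11.8%), beside 24.4% and 26.2% of all tested genes, and their median log2 fold change was -0.31. The inflammatory caspases Casp1 and Casp4 were tested and neither was called, although Casp4 was called lower with TPM (-0.69).

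Xiap belongs to the inhibitor of apoptosis (IAP) family. Of its 8 tested relatives, 6 were called lower and 1 higher, beside 24.4% and 26.2% of all tested genes, and 5 of the 6, all but Naip1, had an adjusted P under 0.05 by limma. Birc2 and Birc3, the cellular IAPs that add ubiquitin to Ripk1, had log2 fold changes of -0.99 and -0.80. Naip2, Naip5 and Naip6, sensors of the inflammasome, had -0.86, -1.69 and -1.69, and Naip1, with at most 8 reads in an Al library, had -1.003 (adjusted P = 0.0594 from limma), a call lost with a pseudocount of 1, with a replicate block and without Al replicate 1 or 3. Birc3 lost its call with quantile normalization and with a pseudocount of 1. The Naip genes are close copies of each other, so their single values are uncertain. Birc6, the most abundant of these relatives in the control group (37.9 to 43.2 FPKM), was not called (-0.20). With FPKM as deposited (-0.69) and with TPM (-0.99) Birc6 was called lower. Birc5 (survivin), which works in mitosis, was the member of the family that rose, by 0.78 (adjusted P = 0.000756 from limma), a call lost with FPKM as deposited (0.29) and with TPM (-0.0063).

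Components of the platforms did not move as units. On the PIDDosome, Pidd1 had 4.35, 3.78 and 4.88 FPKM across control libraries 1 to 3 and 8.53, 8.88 and 9.56 across Al libraries 1 to 3, while its adaptor Cradd had 1.97, 2.12 and 1.54 and then 0.316, 0.239 and 0.171. Their log2 fold changes were 1.52 (adjusted P = 3.30e-05) and -2.13 (adjusted P = 0.000235), both from limma, and Cradd rested on 9 to 21 reads per Al library. On the apoptosome, Cycs (cytochrome c), a gene with many processed copies whose value is therefore uncertain, rose by 1.07, a call lost with TPM (0.29). Apaf1, the scaffold, had a log2 change of -0.34 (adjusted P = 0.0376 from limma), short of the fold threshold, and was called lower with FPKM as deposited (-0.82) and TPM (-1.11).

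At the death receptors, the adaptors Fadd and Tradd fell by 0.71 (a call lost with quantile normalization) and 0.90 on the log2 scale, and Pea15a, which binds Fadd, fell by 0.58, with 66.7% of the control level. Ripk1, the kinase recruited there, had a log2 change of -0.08 with overlapping groups, and Casp8ap2, which binds Casp8, had 0.39 (adjusted P = 0.00921 from limma), short of the fold threshold. TPM gave -0.86 for Ripk1, called lower, and -0.39 for Casp8ap2, not called. The receptor Tnfrsf1a fell by 0.60, a call lost without Al replicate 2, while the other 4 receptors of the list were not called. Among these, Tnfrsf10b had a log2 change of 0.56 (adjusted P = 0.00689 from limma), with the Al libraries above the control libraries after scaling, and was called higher without control replicate 3 (0.68) and without Al replicate 1 (0.59). Fas (-0.63) and Tnfrsf25 (-1.20) were called lower with TPM, Tnfrsf25 also with FPKM as deposited (-0.93) and without Al replicate 2 (-0.87). Pea15a lost its call with a pseudocount of 1, without control replicate 2 and without Al replicate 2. Of the other IAP antagonists, Htra2 had 26.3, 26.9 and 24.6 FPKM across control libraries 1 to 3 and 9.11, 10.1 and 8.15 across Al libraries 1 to 3, or a log2 change of -1.02 (adjusted P = 0.000278 from limma), and Xaf1 and Sept4 were not called. Xaf1 (-0.68) was called lower with a replicate block, with FPKM as deposited, with TPM, without control replicate 3 and without Al replicate 1.

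Downstream of the executioners, Dffb rose and Dffa fell. Dffb encodes the nuclease CAD and Dffa encodes ICAD, the chaperone and inhibitor that caspases cut to release it. Dffb had 0.975, 0.715 and 0.841 FPKM across control libraries 1 to 3 and 3.48, 3.86 and 4.41 across Al libraries 1 to 3, from 82 to 99 and 223 to 246 reads. Its fitted log2 change equalled 2.55 ± 0.18 by limma (standard error, adjusted P = 1.41e-05), or 5.84-fold, against 2.09 from the deposited FPKM and 1.81 from TPM on the log2 scale. Dffa had 7.03, 6.56 and 7.85 FPKM across control libraries 1 to 3 and 1.59, 2.05 and 2.36 across Al libraries 1 to 3, or a log2 change of -1.33 (adjusted P = 0.000140 from limma). Dffb per length was thus below Dffa in each control library and above it in each Al library. The substrates Parp1, Acin1, Rock1 and Gsn were not called. With TPM Parp1 (-0.78) and Rock1 (-1.07) were called lower, Rock1 also with FPKM as deposited (-0.77), and Gsn was called higher without Al replicate 3 (0.68).

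**Figure D4:**
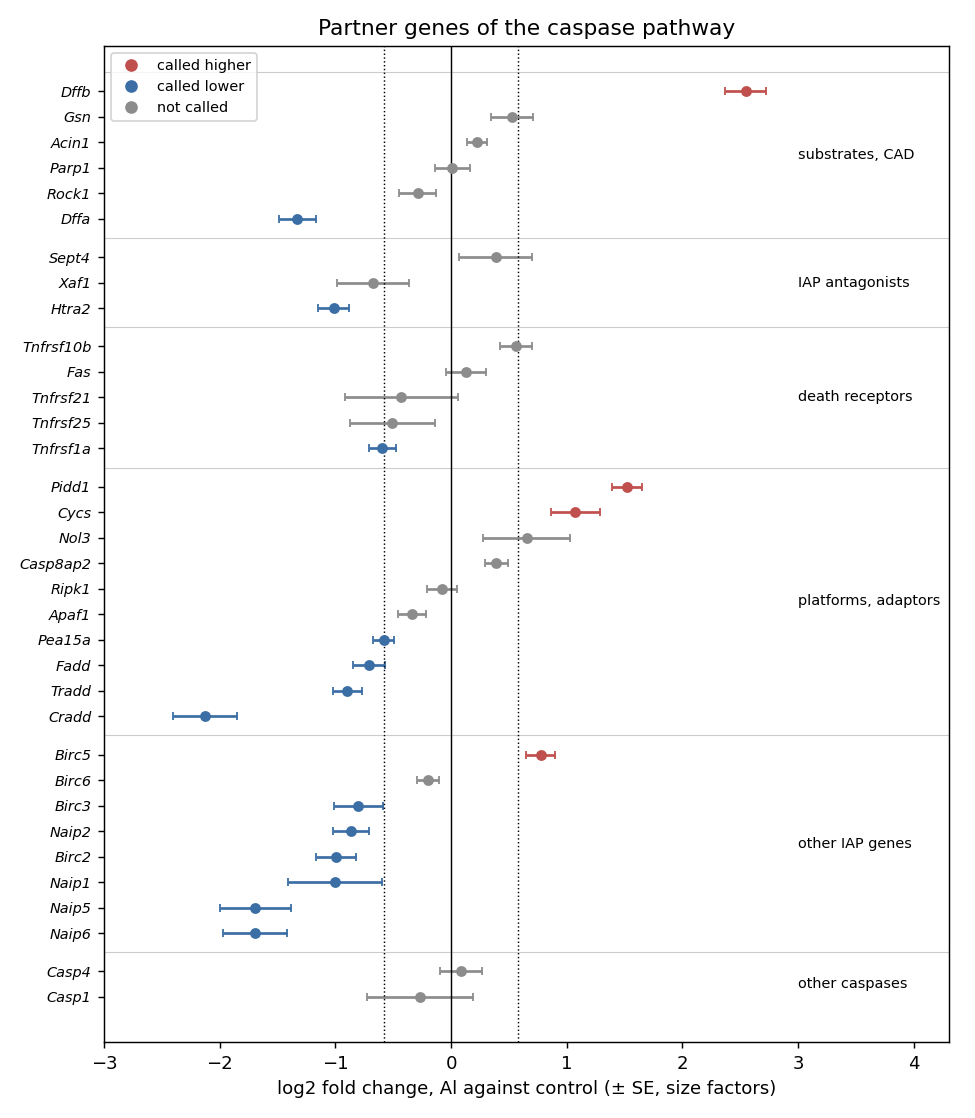
Log2 fold change of Al against control after size factors (horizontal axis, ± standard error) for the 34 tested partner genes, grouped by role. Blue points were called lower, red points higher and grey points were not called, and the dotted lines mark 0.58. Dffb (2.55) and Pidd1 (1.52) stand highest, and Cradd (-2.13) lowest.

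Genes whose log2 values followed the same pattern over the 6 libraries were sought among 10348 others with a mean of at least 1 FPKM. For Casp9, with the largest fitted change, they were Tmem165, Lrrc16a and Slc27a4, each with Pearson r of at least 0.999, and 1647 genes had r above 0.95. For Diablo, the gene with the highest mean level, they were Vps45 (r = 0.997), Pigx (0.994) and Pabpn1 (0.989), with 107 genes above 0.95. The 6 points form 2 groups that also differ in depth, and no test was made.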

How the data were processed

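Libraries came from 6 HT22 samples, 3 per group, described in the paper as biological replicates. By its methods the authors trimmed with Trimmomatic, removed ribosomal reads with SortMeRNA and aligned with HISAT2 to GRCm38/mm10; the labels name fastp, HISAT2, HTSeq and GRCm39. The deposited values are FPKM per gene symbol, not scaled between libraries. Reads were recovered from the FPKM steps for 17686 of 17688 genes above 0 (relative tolerance 2e-08). Size factors were medians of ratios over genes above 0 in every library with mean FPKM of at least 1. limma 3.58.1 (R 4.3.3, eBayes with trend) was fitted to 12889 genes with mean FPKM of at least 0.1. The study used DESeq2, which was not run here because the deposited values are FPKM. Recovered reads were fitted with voom as an alternative. On simulated data 99.0% of genes changed by 1.5 on the log2 scale were called, and 0.490% of the others. The simulation changed 200 of 12648 genes, evenly up and down, with the same spread setting for every gene and no shift in composition. Its rates therefore do not carry over to these data, where 50.6% of tested genes were called and composition differed. Alternatives covered scaling, pseudocount, filter, trend, block and omitted libraries. Named genes are the 8 members, partner genes that were called, and the 3 genes most correlated with the member of largest change and with the most abundant one. Marker genes and genes overlapping a member are named as checks, and partner genes named as not called or not tested were added after their values were seen. Members and lists were chosen with earlier results of these data known. P values measure only the spread between these samples. Sequences and coordinates come from GENCODE M21 and RefSeq on GRCm38. Some partner genes of the pathway are not reported here and are left out of the partner counts.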

Additional observations from a re-analysis of the deposited data

How the results depend on the processing

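Of the 8 genes, 4 were called lower under every alternative but FPKM as deposited and TPM, where it was 6. The count called higher was 2, 0 with FPKM as deposited, 0 with TPM, 1 with a pseudocount of 1, and 1 to 2 with each library left out. Casp2 reversed with TPM (-0.19). Partner genes called higher numbered 4, or 3 with FPKM as deposited, 2 with TPM, and 4 to 5 with a library left out. Those called lower numbered 13, or 18 with FPKM as deposited, 22 with TPM, 10 with a pseudocount of 1, and 11 to 14 with a library left out. All genes called higher numbered 3375, or 1805 with FPKM as deposited and 1200 with TPM, and those called lower 3143, or 5417 and 6843. These scalings shift the median of all genes by -0.46 and -0.75. The log2 ratios ranged from 0.82 to 1.20 (Diablo to Xiap), -1.27 to -1.02 (Casp8 to Cflar) and -1.38 to -1.18 (Casp9 to Xiap) with a library left out. Deviations of same-numbered libraries correlated at -0.033, -0.026 and -0.073, so no shared effect of the number was seen. These values cannot exclude that same-numbered libraries were handled together. With a replicate block 4 of the 8 genes were lower, 2 higher, and 3123 and 3352 of all genes. Adding the block changed no call among the 8 genes. Among the partner genes Naip1 lost its lower call and Xaf1 gained one. Of the log2 changes of the 8 genes over 17 alternatives, 124 kept direction and side of the threshold, 7 lost the call, 4 gained one and 1 reversed. The fit with voom on recovered reads was chosen after seeing the data and gave 2 genes higher and 4 lower. Casp9, Casp6 and Casp12 had the fewest reads, 38 to 103 reads per Al library.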
